A study of Mus musculus with 8 samples.

Results

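Immediate early genes and the transcription factor AP-1 were followed across 3 kinds of mouse culture. The group was set as a fixed list of 10 genes, namely Fos, Fosb, Fosl1, Fosl2, Jun, Junb, Egr1, Atf3, Ier2 and Dusp1, and every probe set that carried 1 of these symbols and no other was taken. All 10 genes were found, with 13 probe sets, among 18194 genes and 34958 single-gene probe sets on the arrays. Fosl1, Fosl2 and Jun had 2 probe sets each and the other 7 genes had 1.

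The cultures were measured with 8 Affymetrix arrays of total RNA. The 3 PSC arrays hold C57BL/6 parthenogenetic stem cells, derived on day 6 from blastocysts that grew out of oocytes of superovulated mice after activation with strontium chloride, and so without a paternal genome. The 2 EB_PSC arrays hold embryoid bodies, aggregates of mixed cell types into which C57BL/6 PSC differentiated over 15 days. The 3 ESC arrays hold the embryonic stem cell line R1, cultured on feeder fibroblasts from mouse embryos (MEF) with the cytokine LIF, which sustains self-renewal. The labels name no genetic change and no drug in any group, name feeders and a line for ESC only, give no strain for ESC, and do not say how many PSC lines or cultures were used. PSC and ESC therefore differ in line and in genome origin together, may also differ in strain and culture conditions, and these cannot be told apart. No label names separate cultures, so the p-values reflect the spread among these arrays alone, and that spread may be technical.

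Immediate early genes are transcribed within minutes of a growth factor, stress or handling signal, without new protein synthesis, mostly through kinases of the MAPK family and the factors SRF, ELK and CREB. AP-1 is a pair of leucine zipper proteins, in which a Jun protein binds a Fos, Jun or ATF protein and the pair binds DNA. In embryonic stem cells the Erk branch of MAPK signalling is known for driving the exit from pluripotency. Fos and Fosb encode Fos proteins with a transactivation domain, and Fosl1 and Fosl2 encode Fra-1 and Fra-2, which lack that domain. Jun and Junb encode Jun proteins. Egr1 encodes a zinc finger factor, Atf3 a leucine zipper factor induced by stress, Ier2 a small nuclear protein and Dusp1 a phosphatase that switches MAPKs off.

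Start-site sequences in RefSeq (GRCm38.p6) were found for 7 of the 10 genes and not for Fosl1, Egr1 and Ier2. The 250 bases before the start are shown for 4 of them, because these span the range of what was measured: Fos had the largest fall in embryoid bodies, Fosl2 and Jun were each higher than in PSC on 1 of 2 probe sets, and Dusp1 had a difference from PSC that did not pass the test. Each is written 5′ to 3′ on the gene's own strand, with every match to a searched motif in capitals.
Fos, chr12:85473640-85473889, plus strand: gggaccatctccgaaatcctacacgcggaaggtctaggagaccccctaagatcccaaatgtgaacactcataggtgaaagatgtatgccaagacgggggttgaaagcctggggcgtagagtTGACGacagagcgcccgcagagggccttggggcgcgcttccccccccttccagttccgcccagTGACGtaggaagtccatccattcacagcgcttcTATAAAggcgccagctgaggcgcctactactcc
Fosl2, chr5:32136222-32136471, plus strand: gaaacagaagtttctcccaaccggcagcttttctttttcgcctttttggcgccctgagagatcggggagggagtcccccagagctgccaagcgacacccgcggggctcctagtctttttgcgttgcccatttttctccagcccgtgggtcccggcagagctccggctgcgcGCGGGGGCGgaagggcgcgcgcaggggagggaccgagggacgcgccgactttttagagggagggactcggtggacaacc
Jun, chr4:95052223-95052472, minus strand: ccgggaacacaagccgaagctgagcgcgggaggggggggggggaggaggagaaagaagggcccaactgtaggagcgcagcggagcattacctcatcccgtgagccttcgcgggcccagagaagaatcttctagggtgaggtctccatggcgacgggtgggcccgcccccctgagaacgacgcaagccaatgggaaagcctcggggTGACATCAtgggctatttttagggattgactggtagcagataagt
Dusp1, chr17:26508473-26508722, minus strand: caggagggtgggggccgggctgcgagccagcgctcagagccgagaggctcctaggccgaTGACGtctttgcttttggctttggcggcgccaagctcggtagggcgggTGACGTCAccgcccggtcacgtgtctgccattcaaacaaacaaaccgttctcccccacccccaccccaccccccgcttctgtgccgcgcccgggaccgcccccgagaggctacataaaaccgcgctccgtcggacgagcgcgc

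The motifs were TGACG (the core of the cyclic AMP response element), TGACGTCA (the full element) and TGACNTCA (which contains the full element). Others were TGANTCA (a form of the AP-1 site), GCGGGGGCG (the EGR site) and the CArG box bound by SRF. These were searched on both strands, and TATAAA on the gene's strand. TGACG lies within TGACGTCA, so a full element counts under both. Fos held TGACG at -129 to -125 and at -66 to -62, counted from the start, and TATAAA at -33 to -28. Jun held TGACATCA at -45 to -38, Fosl2 held GCGGGGGCG at -79 to -71, and Dusp1 held TGACGTCA at -143 to -136 and a further TGACG at -191 to -187. Among the promoters not shown, Junb held TGACG at -106 to -102 and Atf3 held it reversed at -7 to -3. Fosb held TGACG at -60 to -56 and GCGGGGGCG at -50 to -42. For Fosb, the last 73 bases of the window lie inside the gene's own span, and both matches fall there. No TGANTCA and no CArG box was in any of the 7 windows, and sites further upstream than 250 bases were not searched. Among 27018 promoters of the same length, 17.9% held TGACG, 1.62% TGACGTCA, 7.59% TGACNTCA, 6.87% TGANTCA, 2.56% GCGGGGGCG, 1.4% a CArG box and 8.12% TATAAA.

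Levels are given as the deposited log2 RMA values, where a step of 1 is a doubling of signal. The median of all values, 5.44, served as the limit of dim signal: a difference from a group whose mean lies below it is read as a lower bound, without a fold. Levels of different probe sets were not set against each other, since probes differ in brightness.

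**Figure D1:**
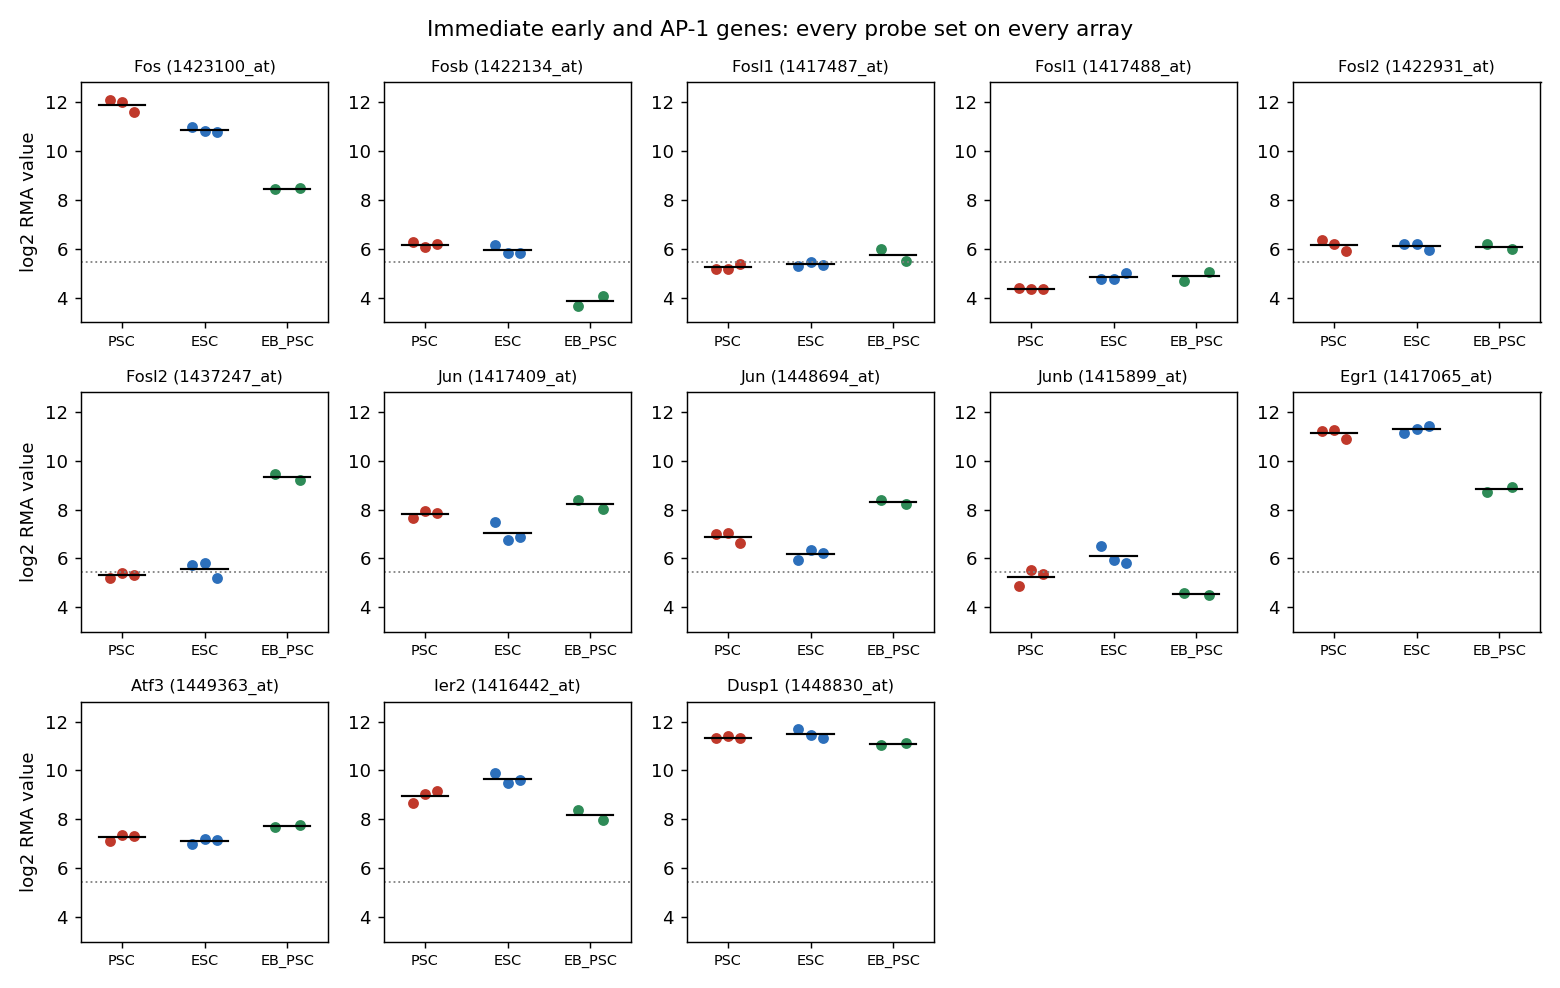
Deposited log2 RMA value (vertical axis) of each of the 13 probe sets on every array (points), by group, with the group mean (bar) and the limit of dim signal at 5.44 (dotted). Fos, Fosb and Egr1 lie far lower in EB_PSC than in PSC and ESC, and Fosl2 lies far higher on probe set 1437247_at while probe set 1422931_at stays level.

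The Fos family split by member. Fos was at 12.08, 12.01 and 11.59 in PSC, at 10.96, 10.81 and 10.75 in ESC, and at 8.43 and 8.47 in EB_PSC. The 3 groups did not overlap, and the order was PSC, then ESC, then EB_PSC. Fosb was at 6.26, 6.05 and 6.18 in PSC, at 6.16, 5.84 and 5.84 in ESC, and at 3.64 and 4.08 in EB_PSC, so that PSC and ESC overlapped and both embryoid body arrays were below the dim limit. Fosl2 on probe set 1437247_at was at 5.22, 5.41 and 5.32 in PSC, at 5.72, 5.81 and 5.20 in ESC, and at 9.45 and 9.22 in EB_PSC. Here PSC and ESC were near the dim limit and the embryoid bodies stood far above both. Fosl1 was at 5.16, 5.17 and 5.36 in PSC, at 5.31, 5.46 and 5.35 in ESC and at 5.99 and 5.50 in EB_PSC. Both embryoid body arrays and ESC 2 were above the dim limit, and the gap between these 2 arrays, 5.99 and 5.50, exceeded the gap from 5.50 to the highest ESC array.

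Jun and Junb ran in different orders. Jun was at 7.67, 7.93 and 7.85 in PSC, at 7.49, 6.77 and 6.89 in ESC, and at 8.41 and 8.04 in EB_PSC. The order was EB_PSC, PSC and ESC, with no overlap, and ESC 1 lay closest to PSC. Junb was at 4.88, 5.52 and 5.37 in PSC, at 6.49, 5.94 and 5.83 in ESC, and at 4.57 and 4.50 in EB_PSC. It was highest in ESC, whose arrays were all above the dim limit, and below that limit in both embryoid bodies.

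Among the remaining genes, Egr1, Ier2 and, by a narrow margin, Dusp1 were lowest in embryoid bodies. Egr1 was at 11.20, 11.25 and 10.90 in PSC, at 11.12, 11.31 and 11.43 in ESC, and at 8.72 and 8.94 in EB_PSC, with PSC and ESC overlapping. Ier2 was at 8.67, 9.03 and 9.17 in PSC, at 9.88, 9.47 and 9.62 in ESC and at 8.37 and 7.99 in EB_PSC, without overlap. Atf3 was at 7.13, 7.35 and 7.31 in PSC, at 7.0, 7.19 and 7.14 in ESC and at 7.69 and 7.76 in EB_PSC. Its stem cell groups overlapped and its embryoid bodies were above both. Dusp1 was at 11.31, 11.39 and 11.31 in PSC, at 11.71, 11.46 and 11.33 in ESC and at 11.06 and 11.13 in EB_PSC, the narrowest range of the 10 genes.

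The arrays of a group did not move as a block. PSC 1 held the lowest PSC value for 7 of the 10 genes and the highest for Fos and Fosb, and ESC 1 held the highest ESC value for 6 genes (Fos, Fosb, Jun, Junb, Ier2 and Dusp1) and the lowest for 3. Each embryoid body array was the higher for 5 genes. As measures of RNA quality, the Gapdh control signal near the 3′ end minus that near the 5′ end was -0.06 to 0.00 in PSC, 0.08 to 0.17 in ESC and -0.09 to -0.06 in EB_PSC. The same difference for Actb was 1.04 to 1.54 in PSC, 0.69 to 1.13 in ESC and 1.09 to 1.17 in EB_PSC, so ESC had the highest values on Gapdh and PSC 1 the highest on Actb. The part of RNA quality in the results was not tested.

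The comparison of embryoid bodies with PSC asked how these genes differ after 15 days of differentiation. Fos was 10.9-fold lower in EB_PSC (8.45 ± 0.03, SD, n = 2, against 11.90 ± 0.27, n = 3) and Egr1 was 4.89-fold lower (8.83 ± 0.15 against 11.12 ± 0.19). Fosb, Junb and Ier2 were lower too, whereas Fosl1, Atf3 and, on 1 of its 2 probe sets, Fosl2 were higher. Of the 10 genes 5 fell, 3 rose and 2 did not pass the test. Over all genes 43.9% passed it in either direction, 25.2% lower and 18.8% higher.

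**Figure D2:**
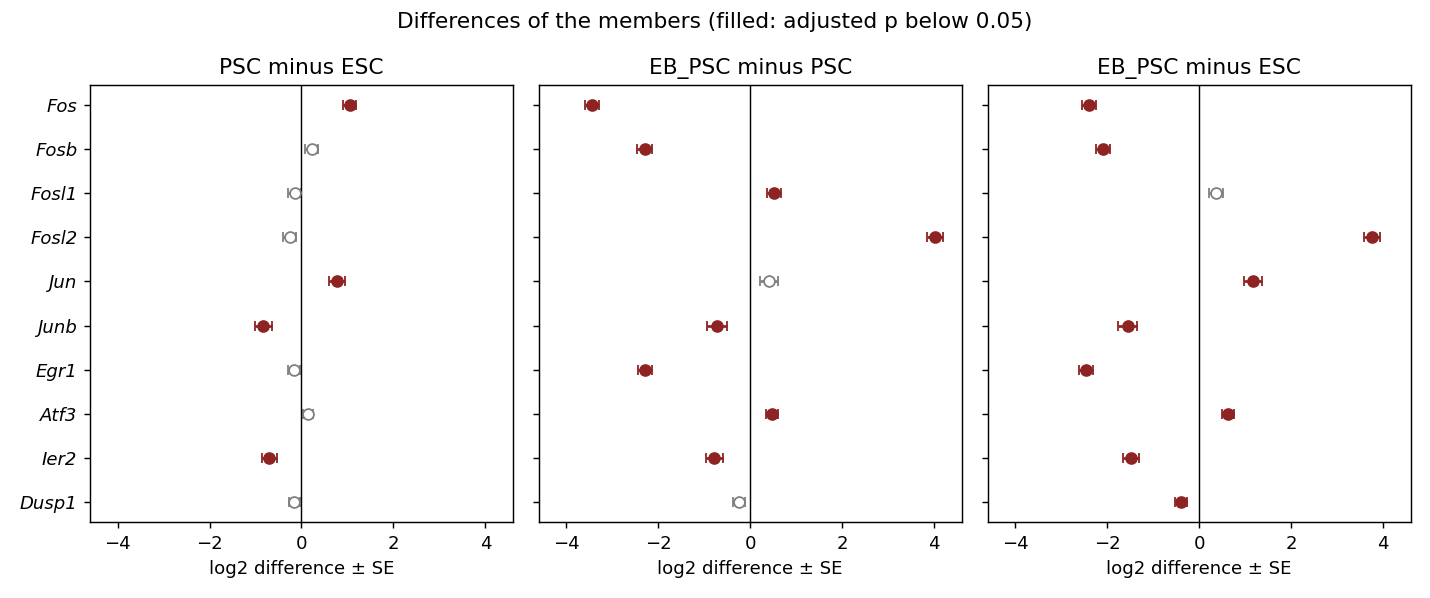
Difference in log2 units (horizontal axis) with its standard error from the fit, for each of the 10 genes in the 3 comparisons; filled points passed the test at an adjusted p below 0.05. In EB_PSC minus PSC the differences reach from -3.45 for Fos to 4.02 for Fosl2 (on probe set 1437247_at), while in PSC minus ESC they reach from -0.83 for Junb to 1.05 for Fos.

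Fos fell by 3.45 ± 0.15 log2 units (difference ± standard error; limma adjusted p = 8.35e-10) and Egr1 fell by 2.29 ± 0.15 (3.63e-08). Fosb fell by 2.30 ± 0.16 (6.65e-08), a lower bound. Ier2 was 1.72-fold lower and fell by 0.78 ± 0.18 (0.00266). Junb, dim in both groups, fell by 0.72 ± 0.21 (0.0122), which no longer passed when PSC 2 (0.0577) or EB_PSC 2 (0.0664) was left out (range over the alternatives 0.00347 to 0.0664). Dusp1 differed by -0.24 ± 0.13 (0.166), with a 95% interval of -0.53 to 0.05.

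Fosl2 gave different results on its 2 probe sets. On probe set 1437247_at it was higher by 4.02 ± 0.17 (limma adjusted p = 5.54e-10), a lower bound because PSC were dim. This probe set stood for the gene because its mean over all 8 arrays was the higher, 6.42 against 6.12, and it was so only through the 2 EB_PSC arrays, so the difference itself took part in choosing it. Its other probe set, 1422931_at, was at 6.36, 6.19 and 5.91 in PSC, 6.21, 6.21 and 5.93 in ESC and 6.19 and 5.98 in EB_PSC, and differed by -0.07 between EB_PSC and PSC, which was not called in the test of every probe set (0.781), where 39.6% of all probe sets were. With the mean of both probe sets the difference was 1.98 and passed the test. That difference came from 1437247_at, so the mean gives no separate support. The probe sets had a Pearson r of -0.09 over the 8 arrays, and which transcripts each reads was not tested.

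The 2 Fosl1 probe sets had a Pearson r of 0.36 over the 8 arrays. Probe set 1417488_at, not used for the gene, was dim in both groups and rose by 0.50. On the probe set used, Fosl1 rose by 0.52 ± 0.15 (limma adjusted p = 0.0134), from a dim level in PSC. The call was lost without EB_PSC 1 (difference 0.27, 0.224, the highest of a range from 0.00108). Atf3 was 1.38-fold higher and rose by 0.47 ± 0.13 (0.00834), which no longer passed when EB_PSC 2 was left out (0.0556; range 0.00115 to 0.0556). Jun differed by 0.41 ± 0.20 (0.116), with a 95% interval of -0.02 to 0.83. It passed with cyclic loess (0.57, 0.0243), in a fit of these 2 groups alone (0.0451) and with the mean of its probe sets (0.91, 6.19e-05), in a range of 1.55e-05 to 0.541. Its probe set 1448694_at was at 6.99, 7.04 and 6.64 in PSC and at 8.38 and 8.24 in EB_PSC, which did not overlap, and was higher by 1.42 in the test of every probe set. On the probe sets that stood for the genes, the groups did not overlap for any of the 10, against 62.8% of all genes. This is a measure that 2 arrays against 3 meet easily. On the other Fosl2 probe set, 1422931_at, the groups did overlap.

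Embryoid bodies hold other cell types than PSC, and in bulk samples fewer cells of a type and less RNA per cell cannot be told apart. On the same arrays all 10 pluripotency genes measured were lower and none dim, with array means of 9.32 to 9.44 in EB_PSC against 11.36 to 11.55 in PSC, and all 8 cardiomyocyte genes were higher, with 8.80 to 9.52 against 4.89 to 4.99, where 6 of 8 were dim. Fibroblast genes were higher for 10 of 14 and lower for 1 (array means 8.93 to 9.36 against 6.22 to 6.36), epithelial genes for 5 of 8 and 1 (10.47 to 10.65 against 8.21 to 8.36), endothelial genes for 7 of 8 and 1 (6.30 to 6.56 against 5.06 to 5.26) and macrophage genes for 6 of 10 and 1 (5.45 to 6.32 against 5.15 to 5.30). Their part in the differences of the 10 genes was not tested.

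The comparison of PSC with ESC asked how these genes differ between undifferentiated cells with maternal genomes only and cells of both origins. Fos was 2.08-fold higher in PSC (11.90 ± 0.27 against 10.84 ± 0.11, SD, n = 3 each) and Jun was 1.70-fold higher (7.82 ± 0.14 against 7.05 ± 0.39). Ier2 was 1.62-fold lower (8.96 ± 0.26 against 9.65 ± 0.21), and Junb was lower with a dim mean in PSC (5.26 ± 0.33 against 6.09 ± 0.35). Of the 10 genes 2 were higher, 2 lower and 6 did not pass the test, against 20.8% of all genes that passed in either direction (9.07% higher and 11.7% lower). The groups did not overlap for these 4 genes, against 36.5% of all genes.

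Fos differed by 1.05 ± 0.14 log2 units (limma adjusted p = 0.000145) and Jun by 0.77 ± 0.18 (0.00758), with 0.72 on its other probe set. Junb differed by -0.83 ± 0.19 (0.00623) and Ier2 by -0.70 ± 0.16 (0.00713). These 4 calls held in each alternative tried. The 6 genes that did not pass were Fosb at 0.22 (95% interval -0.09 to 0.52), Atf3 at 0.15 (-0.10 to 0.39), Fosl1 at -0.15 (-0.44 to 0.15), Dusp1 at -0.16 (-0.42 to 0.10), Egr1 at -0.17 (-0.46 to 0.12) and Fosl2 at -0.26 (-0.59 to 0.07). Among them, Fosl1 passed when its probe sets were averaged (-0.31, limma adjusted p = 0.0269, in a range of 0.0207 to 0.733), and Fosl2 passed without ESC 3 (-0.44, limma adjusted p = 0.0438, the lowest of a range up to 0.934). The other Fosl1 probe set, 1417488_at, was dim on every array, at 4.38, 4.34 and 4.37 in PSC and 4.77, 4.76 and 4.99 in ESC, and was lower in the test of every probe set (-0.47), as 18.2% of all probe sets were called there.

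Fos lies on chromosome 12, in a stretch where many genes were higher in PSC. Of the 20 measured genes on each side of it that were not dim in PSC or ESC, 19 of 40 were higher, 0 were lower, and their median difference was 0.39. Over the 398 such genes of the chromosome apart from Fos, these 40 included, 140 were higher and 26 lower, with a median of 0.19. Over all 11301 such genes 1349 were higher and 1920 lower, with a median of -0.03. Fos, at 1.05, ranked 3 of these 41 genes, behind Noxred1 (1.32) and Npc2 (1.14), which were picked after their values were seen. The gene next to Fos, Jdp2, which encodes a repressor of AP-1, was higher by 0.55 ± 0.15 (limma adjusted p = 0.0167). The part of this stretch in the difference of Fos was not tested.

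**Figure D3:**
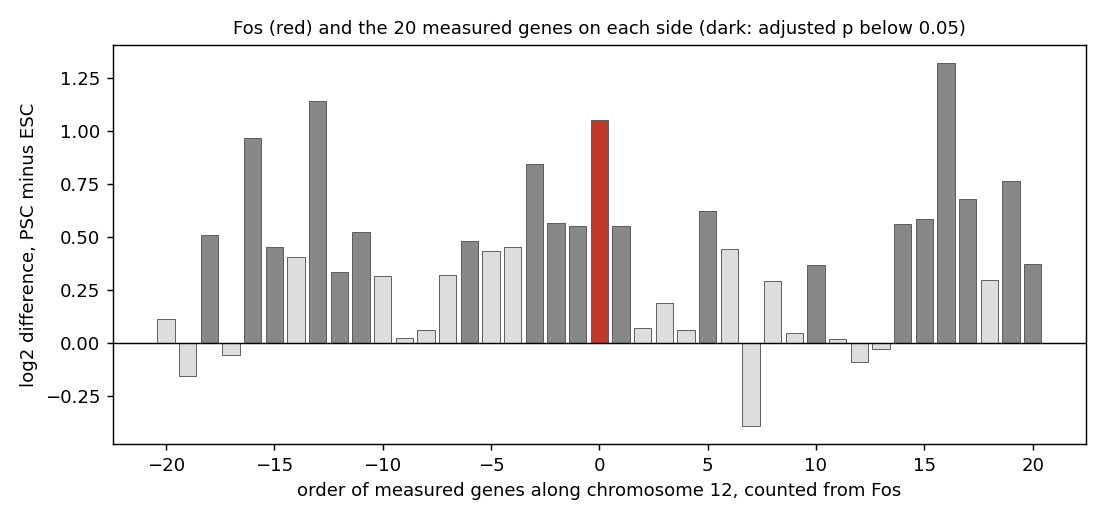
Difference between PSC and ESC in log2 units (vertical axis) for Fos (red) and the 20 measured genes on each side of it in their order along chromosome 12; dark bars passed the test at an adjusted p below 0.05 and light bars did not. Of the 40 neighbours 19 were higher and 0 lower, and Fos at 1.05 ranked 3 of 41.

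ESC were grown on feeders, and fibroblast genes were lower in PSC for 9 of 14 and higher for 0, with array means of 6.22 to 6.36 in PSC, where 4 were dim, and 6.92 to 7.27 in ESC, where 2 were dim. By size the called differences were led by Pdgfrb (-2.05, dim in PSC) and S100a4 (-1.45). The collagen gene Col3a1 came next (-1.41), at 8.10 in ESC and 6.68 in PSC. Epithelial genes were lower for 5 of 8 and pluripotency genes for 3 of 10 with 1 higher, while cardiomyocyte genes were called for 0 of 8, endothelial genes lower for 1 of 8 and macrophage genes higher for 1 of 10. The part of feeder cells in the Junb and Ier2 levels of ESC was not tested.

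Embryoid bodies against ESC share the embryoid body arrays with the comparison against PSC, so both sets of values are not independent. The embryoid bodies also differ from ESC in line and genome origin, and may differ in strain. These differences cannot be told apart from differentiation in this comparison. Fos was 5.25-fold lower than in ESC (-2.39 ± 0.15, limma adjusted p = 2.97e-08) and Egr1 5.50-fold lower (-2.46 ± 0.15, 1.63e-08). Of the 10 genes 6 were lower, 3 higher and 1 did not pass, where 44.9% of all genes passed (25.6% lower and 19.3% higher). The groups did not overlap for any of the 10 on the probe sets that stood for them, against 61.1% of all genes. On the other probe sets of Fosl1 and Fosl2 the groups did overlap. Fosb (-2.09 ± 0.16), Junb (-1.55 ± 0.21) and Ier2 (-1.48 ± 0.18) were lower as well. Fosl2 was higher by 3.76 ± 0.17 (limma adjusted p = 9.87e-10) on probe set 1437247_at. There the ESC mean, 5.57, was just above the dim limit with ESC 3 below it, so 3.76 may be a lower bound. With both probe sets averaged Fosl2 was higher by 1.87, again through 1437247_at, and on the other probe set alone it differed by -0.03. Jun was 2.26-fold higher (1.17 ± 0.20, 0.000232), and 4.4-fold higher on its other probe set (2.14, 3.59e-07), in the test where 41.0% of all probe sets were called. Atf3 was 1.53-fold higher (0.62 ± 0.13, 0.00116). Dusp1 was 1.32-fold lower (-0.40 ± 0.13, 0.0241), a call that was lost in 7 of 15 alternatives, among them cyclic loess (-0.17, 0.341, the highest of a range from 0.0139) and leaving out ESC 1 (0.0852), EB_PSC 1 (0.114) or EB_PSC 2 (0.0646). Fosl1 differed by 0.37 ± 0.15 (0.0645), and passed with cyclic loess (0.0494), with array weights (0.035) and without EB_PSC 2 (0.61, 0.00866; range 0.00866 to 0.898).

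Other genes of the same pathways were taken from lists of textbook members. The shares of all genes to set beside the list counts were 18.8% higher and 25.2% lower for EB_PSC against PSC. They were 9.07% and 11.7% for PSC against ESC, and 19.3% and 25.6% for EB_PSC against ESC. Among 11 other AP-1 family genes measured, 1 was higher and 1 lower in EB_PSC than in PSC, and 9 did not pass (list median 0.10, all genes -0.09). Jdp2 was 2.02-fold higher (1.01 ± 0.16, limma adjusted p = 0.000183) and Atf2, a partner of Jun, was 1.35-fold lower (-0.43 ± 0.14, 0.0237). Jund, the remaining Jun gene, singled out after its values were seen, was at 9.71 in EB_PSC and 10.03 in PSC (-0.33 ± 0.15, 0.107). Of the same 11 genes, Jdp2 was higher in PSC than in ESC and Mafg, a small Maf gene, was lower, at -0.65 ± 0.13 (0.00325).

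Other immediate early genes went both ways in embryoid bodies. Of 30 measured, 11 were higher, 10 lower and 9 did not pass (median 0.00). Ptgs2, which encodes the inducible cyclooxygenase, rose by 4.54 ± 0.18 (limma adjusted p = 2.84e-10) from 5.47 to 10.01. Ier5, a gene of the same family as Ier2, rose by 3.11 ± 0.15 (2.49e-09), whereas Ier2 fell. Klf4, a Krüppel-like factor of the pluripotency network, fell by 3.03 ± 0.13 (5.58e-10). Against ESC, 9 of the 30 were higher and 5 lower in PSC, with Zfp36, which encodes an mRNA decay factor, at -1.20 ± 0.12 (1.67e-05), Myc at -2.38 and Ier3 at 1.10.

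**Figure D4:**
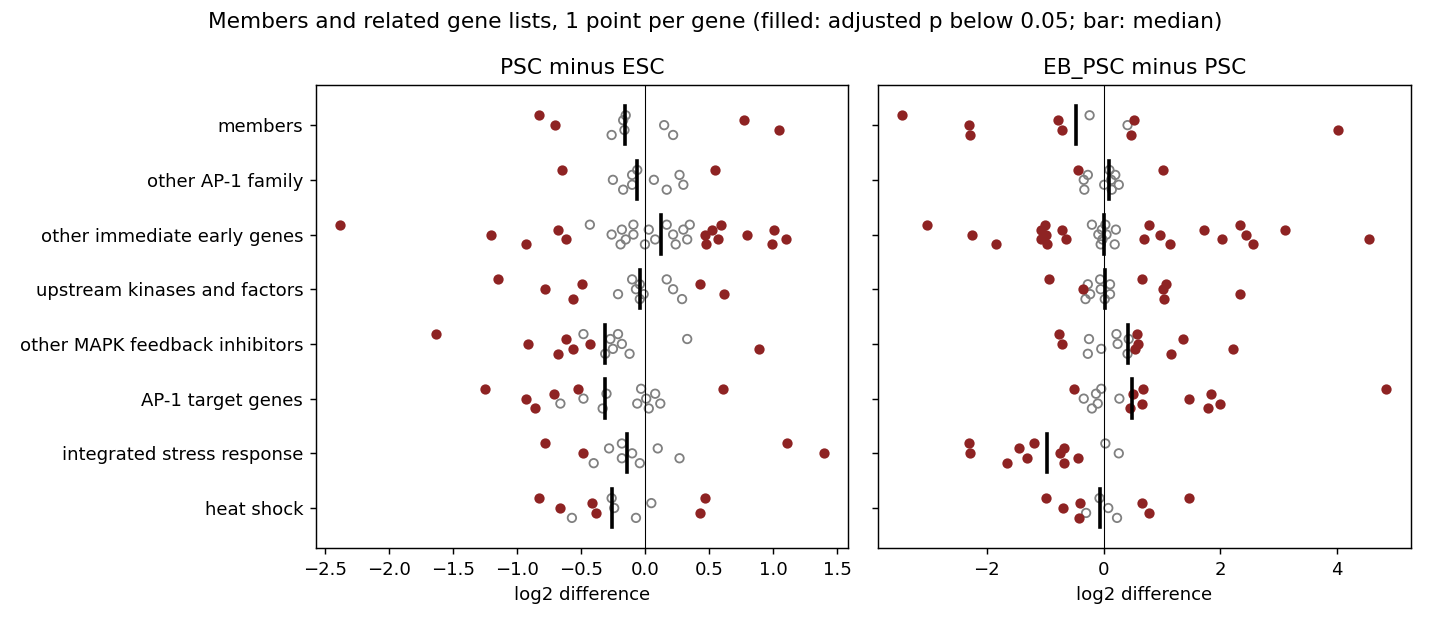
Difference in log2 units (horizontal axis) of each gene (points) of the 10 immediate early and AP-1 genes ("members") and of 7 related lists, with the list median (bar); filled points passed the test at an adjusted p below 0.05. In EB_PSC minus PSC the list of the integrated stress response lies lowest, with a median of -0.97, and the AP-1 target genes highest, with a median of 0.48.

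Upstream kinases and factors were higher in EB_PSC for 5 of 15 and lower for 2 (median 0.02). Elk3, a partner of SRF, rose by 2.34 ± 0.22 (limma adjusted p = 1.36e-06), Mrtfb, a coactivator of SRF, rose by 1.07 ± 0.14 (2.82e-05), and the kinase gene Mapkapk2 rose by 1.03 ± 0.17 (0.000233). Against ESC, 2 were higher and 4 lower in PSC (median -0.04), with Elk3 at -1.15 ± 0.20 (0.00105), Map2k2 at -0.78 and Mapk8, which encodes the kinase Jnk1, at 0.62.

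Other MAPK feedback inhibitors, the relatives of Dusp1 and the Sprouty and Spred genes, were higher in EB_PSC for 6 of 15 and lower for 2 (median 0.41). Dusp4 rose by 2.22 ± 0.16 (limma adjusted p = 9.98e-08), Dusp10, dim in PSC, by 1.36 ± 0.20 (8.31e-05) and Dusp6, an Erk phosphatase, by 1.15 ± 0.13 (5.91e-06), while Dusp1 did not pass the test. In PSC 1 was higher and 6 lower than in ESC (median -0.31), among them Dusp9 at -1.63 ± 0.20 (7.61e-05) and Spry1 at -0.91 ± 0.16 (0.00114), with Dusp4 the higher gene at 0.89 ± 0.14 (0.000632).

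Genes known as AP-1 targets were higher in EB_PSC for 9 of 16 and lower for 1 (median 0.48). The adhesion gene Cd44 was 28.6-fold higher (4.84 ± 0.14, limma adjusted p = 2.01e-11), the intermediate filament gene Vim 4.01-fold higher (2.00 ± 0.20, 2.59e-06) and Plaur, the urokinase receptor gene, 3.58-fold higher (1.84 ± 0.15, 4.66e-07). Such genes are also expressed by fibroblasts and other differentiated cells. In PSC 1 was higher and 5 lower than in ESC (median -0.32), including Lgals3 at -1.25 ± 0.13 (2.16e-05), Cd44 at -0.93 and Mmp3, dim in PSC, at -0.86.

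Genes of the integrated stress response, the pathway through which Atf4 induces Atf3, mostly fell in embryoid bodies. Of 12 measured 10 fell, 0 rose and 2 did not pass (median -0.97), and Atf3 rose by 0.47. Psat1, a serine synthesis gene, fell by 2.30 ± 0.14 (limma adjusted p = 2.15e-08), Ddit4 fell by 2.29 ± 0.19 (4.37e-07) and Chac1 fell by 1.66 ± 0.13 (3.1e-07). Between PSC and ESC 2 were higher and 2 lower in PSC (median -0.14), with Ddit3, which encodes Chop, at 1.40 ± 0.12 (4.72e-06), Ddit4 at 1.11 and Ppp1r15a at -0.78. Heat shock genes were higher in EB_PSC for 3 of 11 and lower for 4 (median -0.07), with Bag3 at 1.47 ± 0.14 (1.43e-06) and Hspb1 at -0.98 ± 0.15 (0.000154). Between PSC and ESC 2 were higher and 4 lower in PSC (median -0.26).

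Against ESC, embryoid bodies gave 2 higher and 2 lower of the 11 other AP-1 family genes, 11 and 11 of the 30 other immediate early genes, and 6 and 3 of the 15 upstream genes. Feedback inhibitors were higher for 4 and lower for 5 of 15, AP-1 targets for 7 and 2 of 16, and heat shock genes for 2 and 3 of 11. Of the 12 stress response genes 0 were higher and 9 lower. These values use the same embryoid body arrays as the comparison with PSC.

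The genes whose profiles were most like 3 of the members were ranked by Pearson r over the 8 arrays, among 3183 genes with an SD of at least 0.5 and a mean above the dim limit. The 8 arrays fall into 3 groups and share their scaling, and r is given as a description. For Fos the closest were Aldoc (r = 0.997), which encodes a glycolytic aldolase, Arnt (0.995), Sh2d5 (0.992), Ccdc77 (0.989) and Usp48 (0.989). For Egr1 they were Sh3gl2 (0.997), Apobec1 (0.995), Bdh1 (0.994), Serpinb6c (0.994) and Grhl1 (0.993), all of which had like means in PSC and ESC and lower ones in EB_PSC. For Jun they were Cldnd1 (0.986), Dnajc3 (0.945), Hspb11 (0.943), Trib2 (0.942) and Gdpd1 (0.936), with means in the order EB_PSC, PSC and ESC.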

How the data were processed

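The authors deposited log2 values of probe set signal; the submitters' processing notes name RMA and the labels name Bioconductor, with the versions not given in the sources used here. RMA evens out the arrays' distributions, so a shift of most transcripts would not show, and dim differences are compressed. Gene names came from the platform's annotation table (34958 with 1 gene, 932 with several, 9211 with none). For 18194 genes, the probe set with the highest mean over the 8 arrays was used. Limma 3.58.1 in R 4.3.3 fitted the 8 arrays together with a term for group and no other (5 residual and 8.07 prior degrees of freedom). The two-sided tests had Benjamini-Hochberg adjustment over all genes, with calls at an adjusted p below 0.05. The number of arrays limits the precision. Deviations of same-numbered arrays had correlations from -0.247 to 0.216. With 2 or 3 arrays in a group these cannot show whether the replicate numbers pair the arrays.

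The members and lists were chosen with earlier results of these data known, and the promoter motifs after seeing the values. Named genes are the 10 members, up to 3 called genes of each list by size per comparison, and the 5 profiles most like Fos, Egr1 and Jun each (SD of at least 0.5, mean above the dim limit); Jund, Noxred1 and Npc2 fall outside this rule and were picked after their values were seen. List symbols that had become synonyms were matched through RefSeq; 7 list genes were not analysed here. The alternatives were repeated quantile normalization, cyclic loess, a dim filter, the mean of all probe sets, removal of _x_at and _s_at probe sets, every probe set, the compared groups alone, a trended robust prior, array weights, a replicate block each array left out and, added after seeing the data, the other probe set of Fosl1, Fosl2 and Jun. The method was tested on simulated data for 18194 genes, of which 200 were changed. For EB_PSC against PSC it called 16% of changes of 0.5, 86% of 1 and 100% of 2 log2 units. For PSC against ESC these shares were 24%, 82% and 100%. Far more genes were called in the data, 43.9% and 20.8% of them, so the simulated shares need not hold there. Tables and figures used Python 3.11.15, pandas 2.3.3, NumPy 2.4.6 and Matplotlib 3.10.9.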

Additional observations from a re-analysis of the deposited data

How the results depend on the processing

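Of 467 values of the 10 genes under the alternatives, over 30 results, 443 kept their direction and side of the threshold, 11 lost the call, 10 gained it and 3 reversed, and 20 results kept both in every alternative. The reversals were those of Fosl2 on its other probe set, an alternative chosen after seeing the data: 0.04 for PSC against ESC, -0.07 for EB_PSC against PSC and -0.03 for EB_PSC against ESC, none called; the cause was not tested. On the other probe sets, Jun for EB_PSC against PSC (1.42) and Fosl1 for PSC against ESC (-0.47) gained the call. Over all genes, 3782 were called between PSC and ESC, 5693 with array weights and 2490 to 4142 when an array was left out (2490 without PSC 1). Tested as probe sets, 6372 of 34958 were called there, 13855 for EB_PSC against PSC and 14344 for EB_PSC against ESC, more because more features were tested. With the replicate block the counts were 3564, 7517 and 7693, and the block changed no call of the 10 genes. Cyclic loess moved the share of higher genes among the calls from 42.7% to 54.0% for EB_PSC against PSC and from 43.0% to 55.0% for EB_PSC against ESC; the cause was not tested. Where an embryoid body array was left out, the lone array was assumed to vary like the other groups. Junb, Fosb, Fosl1 and Fosl2 were near or below the dim limit in at least 1 group, so their differences are compressed. The filter on dim probe sets left out Fosl1 for PSC against ESC and Junb for EB_PSC against PSC, which gave no value there.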
